A study of Mus musculus with 5 samples.

Results

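The Wnt pathway genes of the mouse uterus were compared between females exposed to seminal plasma (SP) of aged males and females exposed to seminal plasma of young males. The 44 genes, out of 28666 listed in the count table, were the Wnt ligands, Fzd receptors, R-spondins, Sfrp antagonists and Dkk antagonists taken by symbol, together with Lgr4, Lgr5, Lgr6, Lrp5, Lrp6, Frzb, Axin2 and Lef1. They fall into 15 Wnt ligands, 10 Fzd receptors, 2 Lrp co-receptors, 4 R-spondins, 3 Lgr receptors, 5 genes of the Sfrp and Frzb class, 3 Dkk genes and 2 target genes.

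All females were ICR mice of 6 to 8 weeks, with no genetic alteration given, and were caged with vasectomized C57BL/6 males, whose ejaculate carries seminal plasma without sperm. The males were 12 to 14 weeks old in the young-SP group (3 libraries, replicates 1, 2 and 4) and 12 to 18 months old in the aged-SP group (2 libraries, replicates 1 and 4). The uteri therefore held no embryos. The sample labels give collection at 3.5 days after caging and the methods give 3.0 dpc. A further young-SP library that the study set aside was not analysed here, and nothing in the labels says that each library came from a separate animal, so p-values measure only the spread between these 5 samples.

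Wnt proteins are secreted lipid-modified signals that bind Fzd receptors together with the co-receptors Lrp5 and Lrp6. In the canonical branch this binding stabilizes beta-catenin, which enters the nucleus and acts with transcription factors such as Lef1 on targets such as Axin2, while ligands such as Wnt5a and Wnt11 are best known for branches that do not need beta-catenin. R-spondins acting through Lgr receptors increase the number of Wnt receptors at the cell surface, and Sfrp and Dkk proteins act outside the cell on the ligands or on the co-receptors. In the mouse uterus Wnt7a is needed for gland formation, Wnt4 for the decidual reaction of the stroma, and Wnt signals are exchanged between epithelium and stroma around implantation.

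Depth was similar in the 5 libraries, with total counts between 15071914 and 16728601, and each of the 10 library pairs differed by more than sampling noise (ratios of chi-square to degrees of freedom from 17.0 to 82.3). The labelled tissue was checked against marker genes. The summed level of 8 uterine epithelium markers was between 969 and 1722 CPM (counts scaled to library size, per 1e+06 counts), and that of 8 stroma markers between 9734 and 17452 CPM, while 7 vagina and cervix markers summed to between 2.30 and 5.44 CPM. Young-SP replicate 1 differed from its group in hormone response genes. A set of 6 genes known to be induced by estrogen in the uterine epithelium (Ltf, C3, Muc1, Lcn2, Sprr2f and Padi1) summed to 9612 and 8782 CPM in aged-SP replicates 1 and 4, to 7640 CPM in young-SP replicate 1, and to only 432 and 1160 CPM in young-SP replicates 2 and 4. Lcn2 was at 1634 CPM in young-SP replicate 1 and at 2.31 and 4.01 CPM in young-SP replicates 2 and 4. For this reason the counts of members are given with and without young-SP replicate 1.

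Of the 44 genes, 35 had enough counts to be tested and 9 did not. The 9 were the ligands Wnt8b, Wnt9b, Wnt10a and Wnt10b, the receptor Fzd9, the R-spondins Rspo2 and Rspo4, and the antagonists Sfrp5 and Dkk1. Most of them stayed below 1 CPM in every library. The exception was Rspo4, which had 47 counts in aged-SP replicate 1, 0 in aged-SP replicate 4, and 1, 1 and 0 counts in young-SP replicates 1, 2 and 4. Rspo4 was therefore a signal of 1 library, and Dkk1, an antagonist that binds the Lrp co-receptors, was at 0 in 4 of 5 libraries, with 2 counts in young-SP replicate 4. A count of 0 is compatible with up to 3 counts by counting error alone.

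Levels per gene length (FPKM as deposited) gave the composition of the pathway in these uteri. The antagonists were among the most abundant members. Sfrp4, a secreted protein with an Fzd-like domain, had the highest mean of the 44 genes, 115 FPKM over the 5 libraries. In young-SP replicate 2, however, Sfrp4 was at 39.7 FPKM, below Sfrp2 (42.9 FPKM) and Fzd2 (40.6 FPKM). Dkk3, a relative of the Dkk antagonists whose role in Wnt signalling is less direct, was the highest of its class with 42.8 and 55.9 FPKM in the aged-SP libraries and 31.3, 24.3 and 33.8 FPKM in the young-SP libraries. The summed FPKM of the Dkk class was 55.6 ± 5.15 (SD, n = 2) against 34.5 ± 4.21 (SD, n = 3) for aged-SP and young-SP. Among the receptors Fzd1 and Fzd2 were the highest, between 24.8 and 40.6 FPKM in every library, and the ranges of the 2 genes overlapped. The summed Fzd level was 107 ± 2.33 FPKM (SD, n = 2) against 97.5 ± 2.18 FPKM (SD, n = 3).

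The 15 ligands together summed to between 43.3 and 58.7 FPKM in the aged-SP libraries and to between 53.6 and 71.8 FPKM in the young-SP libraries, so the totals overlapped. Their make-up differed more than their total. Wnt5a held 31.5% and 26.8% of the summed ligand FPKM in aged-SP replicates 1 and 4, and 36.4%, 43.2% and 39.2% in young-SP replicates 1, 2 and 4. Wnt11 held 4.20% and 5.68% in the aged-SP libraries and 15.3%, 19.7% and 28.0% in the young-SP libraries. Wnt7b held 29.1% in aged-SP replicate 1, 5.74% in aged-SP replicate 4, 4.51% in young-SP replicate 1 and under 0.5% in the other two young-SP libraries. The second ligand of the aged-SP libraries was thus not the same gene in both, being Wnt7b in replicate 1 and Wnt7a (25.5%) in replicate 4.

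**Figure D1:**
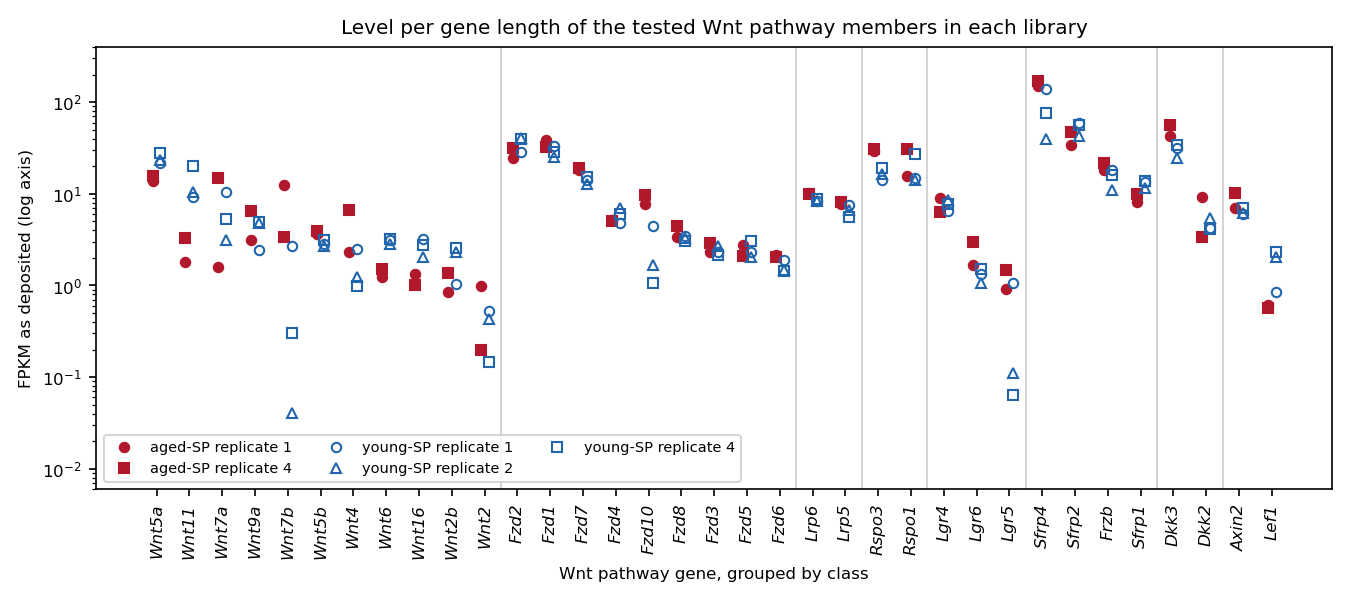
Deposited FPKM (log axis) of the 35 tested Wnt pathway genes, 1 symbol per library (filled red, aged-SP; open blue, young-SP), with grey lines between classes. Sfrp4 reached the highest level, and Wnt7b and Lgr5 were lowest in young-SP replicates 2 and 4, at most 0.301 FPKM for Wnt7b and 0.112 FPKM for Lgr5.

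To learn which of these genes differed between the groups, all 17013 testable genes were fitted together with edgeR's quasi-likelihood test. A gene was called at a Benjamini-Hochberg adjusted p under 0.05 and more than a doubling or halving of the level (absolute log2 fold change over 1). None of the 35 tested members was called, where 0.147% of all tested genes were, and the lowest adjusted p among them was 0.0760 (Rspo3). At an unadjusted p under 0.05 there were 13 members (37.1%), against 19.0% of all tested genes. Of these, 7 were higher in the aged-SP group (Wnt4, Fzd7, Fzd10, Lrp6, Rspo3, Lgr6 and Dkk3; background 9.62% of all tested genes) and 6 were lower (Wnt5a, Wnt6, Wnt11, Wnt16, Sfrp1 and Lef1; background 9.36%). The aged-SP and young-SP libraries did not overlap in CPM for 18 members (51.4%), against 38.8% of all tested genes, and the aged-SP libraries lay above in 12 members and below in 6. The median absolute log2 fold change was 0.44 over the members and 0.24 over all tested genes. The DESeq2 Wald test gave an adjusted p under 0.05 to 8 of the 37 members it could adjust (7.58% of all genes), and called 5 of them (Wnt6, Wnt11, Wnt16 and Lef1 lower, Fzd10 higher), where it called 3.6% of all genes.

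The counts depended on young-SP replicate 1. That library was singled out because its summed estrogen response genes were near the aged-SP level. Leaving it out can therefore widen group differences by selection, and adjusted p values without it are not independent support. Without young-SP replicate 1, edgeR called 4 members (Wnt11 and Lef1 lower, Fzd10 and Lgr5 higher). The background of all tested genes called rose from 0.147% to 3.45%. In that fit 20 members had an unadjusted p under 0.05, against 22.7% of all genes tested in it. DESeq2 without that library called 8 (Wnt2b, Wnt11 and Lef1 lower, Wnt4, Wnt7b, Fzd10, Lgr5 and Sfrp4 higher) against a background of 5.84%. Over the 35 tested members, young-SP replicate 1 lay nearer to the aged-SP mean than to the mean of the other two young-SP libraries in 18 (51.4%), as it did in 43.9% of all tested genes. These were libraries of whole uterus, so fewer cells of a type and less RNA per cell cannot be told apart in any of the values.

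**Figure D2:**
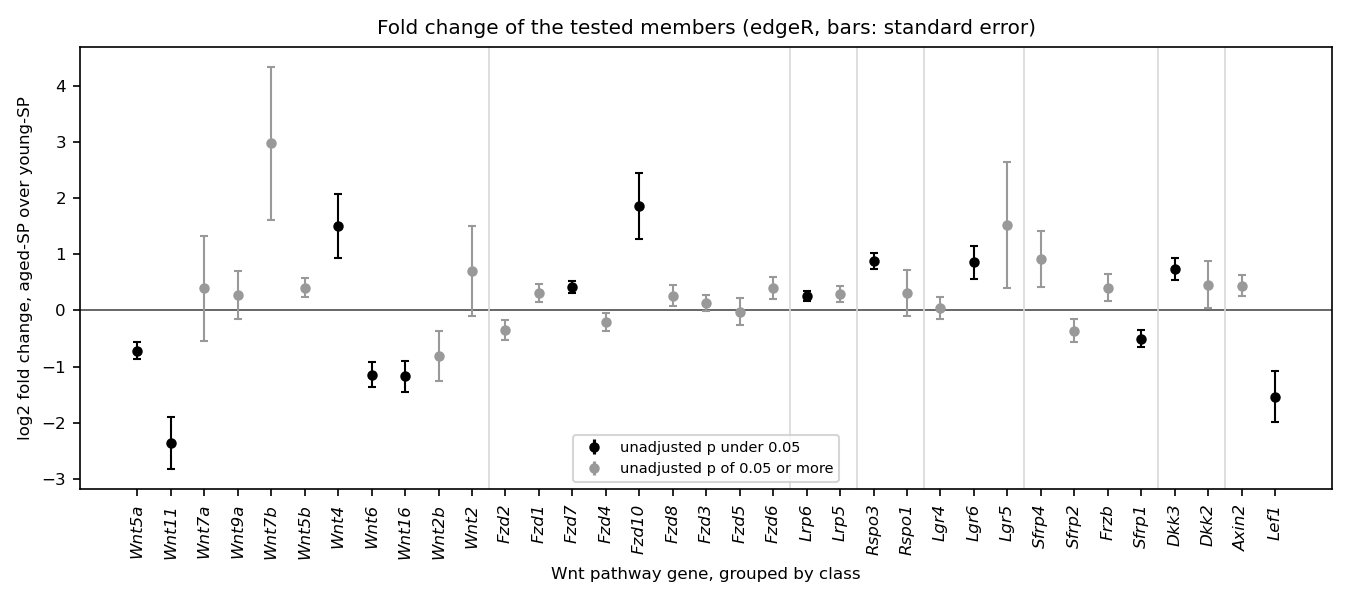
Log2 fold change (aged-SP over young-SP, edgeR, all 5 libraries) of the 35 tested genes by class, with bars of 1 standard error, derived from the F statistic. Black points are the 13 genes with an unadjusted p under 0.05, and none passed the adjusted threshold together with the fold threshold.

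Of the 11 tested ligands, 6 had higher and 5 had lower levels after aged SP, with a median log2 fold change of 0.27. An unadjusted p under 0.05 was found for 4 of the lower ligands (background 9.36% of all tested genes) and for 1 of the higher ones (background 9.62%). Wnt11, which acts in beta-catenin-independent signalling, was at 7.62 and 13.8 CPM in aged-SP replicates 1 and 4 and at 38.5, 42.9 and 83.6 CPM in young-SP replicates 1, 2 and 4. Every aged-SP library was below every young-SP library, young-SP replicate 1 included. The level was 5.13-fold higher in the young-SP group (log2 fold change -2.36, SE 0.47, edgeR adjusted p = 0.0986). The same gene passed with DESeq2 (adjusted p = 2.92e-06), with edgeR when genes of low count were kept (adjusted p = 0.0457, background 0.708%) and with edgeR when young-SP replicate 1 was left out (adjusted p = 0.0443). Its direction held in all 15 alternatives, but only 4 of them gave an adjusted p under 0.05. Wnt11 lies at chromosome 7, 98835112 to 98855195, plus strand (GRCm38), and 8.80% of its exon bases overlap the processed pseudogene Gm8398 on the opposite strand. The library kit does not mark strand, so reads of the 2 genes cannot be told apart there.

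Wnt5a, the most abundant ligand and a signal of the uterine mesenchyme, had 108 and 123 CPM in the aged-SP libraries and 173, 177 and 222 CPM in the young-SP libraries. The groups did not overlap, and young-SP replicate 1 stood with its own group. The log2 fold change was -0.72 (SE 0.15, edgeR adjusted p = 0.105; DESeq2 adjusted p = 0.00192), which stayed under the fold threshold with either tool. Wnt5a lies at chromosome 14, 28504750 to 28527448, plus strand, with 4.58% of its exon bases overlapped by the antisense gene Gm2670.

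Wnt6 and Wnt16 showed the same order at lower levels. Wnt6 was at 2.72 and 3.33 CPM in the aged-SP group and at 6.88, 6.03 and 7.14 CPM in the young-SP group (log2 fold change -1.14, SE 0.22, edgeR adjusted p = 0.0952; DESeq2 adjusted p = 0.00492). Wnt16 was at 5.86 and 4.48 CPM against 14.1, 8.75 and 12.2 CPM (log2 fold change -1.18, SE 0.28, edgeR adjusted p = 0.126; DESeq2 adjusted p = 0.00811). Neither gene shares exon bases with a neighbour, and in both the young-SP values were tight enough that the lowest of them exceeded the highest aged-SP value. Without young-SP replicate 1, both stayed lower but missed the threshold with DESeq2 (adjusted p = 0.0689 for Wnt6 and 0.0665 for Wnt16). On the chromosome Wnt6 is a close neighbour of Wnt10a, 6193 bases away on chromosome 1, and Wnt10a was at most at 0.334 CPM.

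The 250 bases upstream of the annotated starts of Wnt11, Wnt6 and Wnt16 are shown because these were the 3 ligands that DESeq2 called lower. They were taken from RefSeq promoters on GRCm38.p6, each on the plus strand and ending at the base before the gene start given in the deposited table, at chr7:98834862-98835111, chr1:74771642-74771891 and chr6:22287977-22288226. Capitals mark the binding core of the TCF/LEF factors, through which beta-catenin acts, on either strand.
Wnt11: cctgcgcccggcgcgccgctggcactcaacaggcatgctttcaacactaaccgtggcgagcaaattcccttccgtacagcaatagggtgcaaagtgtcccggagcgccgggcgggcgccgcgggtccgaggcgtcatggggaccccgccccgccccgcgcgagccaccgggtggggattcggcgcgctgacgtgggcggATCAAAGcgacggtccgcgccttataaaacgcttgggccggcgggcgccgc
Wnt6: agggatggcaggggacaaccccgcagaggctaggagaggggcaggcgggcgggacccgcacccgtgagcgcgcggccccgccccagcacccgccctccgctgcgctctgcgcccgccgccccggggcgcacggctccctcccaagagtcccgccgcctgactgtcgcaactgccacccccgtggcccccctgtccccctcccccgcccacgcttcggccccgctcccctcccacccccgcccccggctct
Wnt16: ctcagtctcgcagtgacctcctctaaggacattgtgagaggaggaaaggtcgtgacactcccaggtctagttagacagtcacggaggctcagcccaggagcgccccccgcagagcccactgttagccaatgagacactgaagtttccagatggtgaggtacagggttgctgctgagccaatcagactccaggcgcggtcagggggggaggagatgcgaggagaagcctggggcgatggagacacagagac
The core was searched as CTTTGAA or CTTTGAT on both strands in the 250 bases before each start. It was present in 7.48% of 32851 promoter windows, and in 3 of the 35 windows of the 29 members with a RefSeq entry (those of Dkk1, Wnt5b and Wnt11). In Wnt11 it began 51 bases before the start, in the window that ends at the start in the deposited table, and a second RefSeq window of the gene held none. The palindromic estrogen response element, searched without mismatches, was present in 0.0639% of all windows, and the palindromic element shared by the progesterone and glucocorticoid receptors in 0.387%, with 0 matches among the members for each. A match is a description of the letters in the window and was not tied to binding.

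Wnt4 was the only ligand at an unadjusted p under 0.05 that was higher in the aged-SP group. It was at 9.79 and 27.8 CPM in aged-SP replicates 1 and 4 and at 10.5, 5.14 and 4.21 CPM in the young-SP libraries (log2 fold change 1.50, SE 0.57, edgeR adjusted p = 0.245). The groups overlapped, since young-SP replicate 1 exceeded aged-SP replicate 1. The fold rested largely on aged-SP replicate 4, since the log2 fold change was 0.56 without it and 2.06 without aged-SP replicate 1. Without young-SP replicate 1 the log2 fold change was 1.99, with an adjusted p of 0.108 by edgeR and 0.00134 by DESeq2.

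Wnt7b and Wnt7a, both made by the uterine epithelium, varied more within the groups than most members. Wnt7b was at 56.2 and 14.9 CPM in the aged-SP group, at 12.1 CPM in young-SP replicate 1, and at 0.177 and 1.34 CPM in young-SP replicates 2 and 4. All aged-SP values were above all young-SP values, but young-SP replicate 1 lay just below aged-SP replicate 4, and the log2 fold change of 2.97 had an SE of 1.36 (edgeR adjusted p = 0.313). It was 1.71 without aged-SP replicate 1. Without young-SP replicate 1 it was 5.58, with an adjusted p of 0.0510 by edgeR and 0.00220 by DESeq2. Wnt7a was at 5.14 and 47.5 CPM in the aged-SP libraries and at 33.5, 9.81 and 16.8 CPM in the young-SP libraries. The lowest and the highest value of Wnt7a were thus both in the aged-SP group, and the fitted log2 fold change of 0.39 (SE 0.93, edgeR adjusted p = 0.853) gave no direction. The order of the libraries for Wnt7b followed that of the summed estrogen response genes. That sum was high in both aged-SP libraries and in young-SP replicate 1. Gene by gene, only C3 and Padi1 kept the full order. Sprr2f departed most, at 64.4 and 221 CPM in the aged-SP libraries and at 453, 33.8 and 92.5 CPM in young-SP replicates 1, 2 and 4. The part of the estrogen response genes in the result was not tested.

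The remaining ligands, Wnt2, Wnt2b, Wnt5b and Wnt9a, lay between 0.334 and 21.8 CPM, with unadjusted p values of 0.0523 (Wnt5b) or more. Wnt5b did not overlap between the groups, with 9.85 and 10.4 CPM against 7.51, 7.09 and 8.28 CPM. In Wnt2b, Wnt9a and Wnt2 the groups overlapped.

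**Figure D3:**
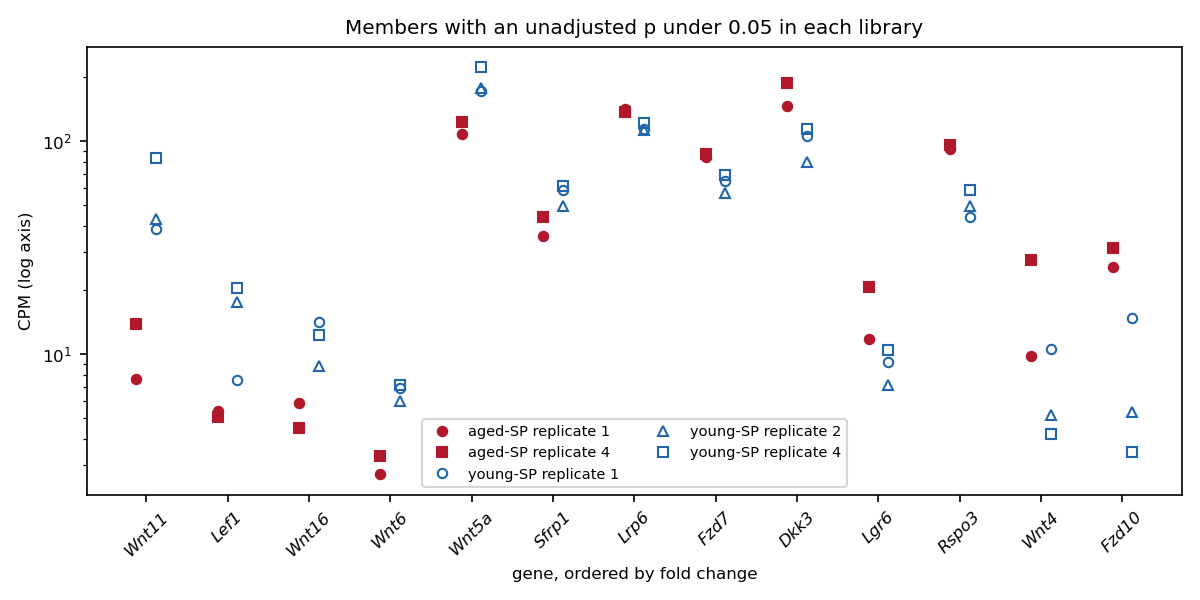
CPM (log axis) in each library of the 13 members with an unadjusted p under 0.05, ordered from the most negative to the most positive log2 fold change (filled red, aged-SP; open blue, young-SP). The groups overlap only in Wnt4. In Lef1, Fzd10, Wnt5a and Wnt11 young-SP replicate 1 lies between the aged-SP libraries and the other young-SP libraries. Of these, it is nearer to the aged-SP mean in Lef1 and Fzd10, and nearer to the other young-SP libraries in Wnt5a and Wnt11.

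Among the receptors, Fzd10 stood apart from the rest of its class. It was at 25.7 and 31.4 CPM in the aged-SP libraries, at 14.7 CPM in young-SP replicate 1, and at 5.32 and 3.47 CPM in young-SP replicates 2 and 4. The groups did not overlap, and young-SP replicate 1 was between the aged-SP libraries and the other two young-SP libraries. The level was 3.64-fold higher in the aged-SP group (log2 fold change 1.86, SE 0.59, edgeR adjusted p = 0.193; DESeq2 adjusted p = 0.0194). Without young-SP replicate 1 the log2 fold change was 2.68 and the edgeR adjusted p was 0.0183. Fzd10 lies at chromosome 5, 128600844 to 128604093, plus strand, and none of its exon bases is shared with another gene.

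Fzd7, a receptor of both canonical and other Wnt signals, showed a small difference with little spread, at 83.8 and 86.9 CPM against 65.2, 57.0 and 68.9 CPM (log2 fold change 0.42, SE 0.11, edgeR adjusted p = 0.143). Every aged-SP library was above every young-SP library. The 2 most abundant receptors did not separate the groups. Fzd1 was at 164 and 135 CPM against 140, 103 and 121 CPM, and Fzd2 was at 92.0 and 115 CPM against 106, 146 and 145 CPM, so that their fitted log2 fold changes were 0.30 (SE 0.16) and -0.35 (SE 0.18). The other tested receptors (Fzd3, Fzd4, Fzd5, Fzd6 and Fzd8) had log2 fold changes between -0.21 and 0.40, and only Fzd6 did not overlap between the groups.

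The co-receptors had small fold changes with little spread. Lrp6, which starts the canonical branch together with Fzd receptors, was at 141 and 137 CPM in the aged-SP group and at 114, 112 and 122 CPM in the young-SP group (log2 fold change 0.26, SE 0.08, edgeR adjusted p = 0.200). Lrp5, its relative, was at 76.8 and 80.1 CPM against 73.4, 63.7 and 55.0 CPM (log2 fold change 0.29, SE 0.14, edgeR adjusted p = 0.323). In both genes the aged-SP libraries were above the young-SP libraries by a margin smaller than for Fzd10 or Rspo3.

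Rspo3, the R-spondin with the smallest p of all members, was at 91.8 and 95.5 CPM in aged-SP replicates 1 and 4 and at 44.1, 49.3 and 59.0 CPM in young-SP replicates 1, 2 and 4. The 2 aged-SP libraries agreed closely, and young-SP replicate 1 was the lowest of all 5. The level was 1.84-fold higher in the aged-SP group (log2 fold change 0.88, SE 0.14, edgeR adjusted p = 0.0760; DESeq2 adjusted p = 0.000105). The adjusted p was 0.0404 with edgeR without young-SP replicate 1, and the log2 fold change stayed between 0.777 and 0.995 whichever library was left out, under the fold threshold. Rspo3 lies at chromosome 10, 29452416 to 29535867, minus strand, and 13.1% of its exon bases overlap Gm48159 on the opposite strand, whose reads cannot be told apart. Rspo1, the other tested R-spondin, was at 30.6 and 59.5 CPM against 29.0, 26.5 and 53.4 CPM. Replicates numbered 4 were the highest in each group, and the groups overlapped (log2 fold change 0.31, SE 0.41).

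The Lgr receptors, which bind the R-spondins, differed from one another. Lgr4, the most abundant of them with between 6.41 and 9.09 FPKM in the 5 libraries, was at 54.1 and 37.8 CPM against 38.2, 49.7 and 45.9 CPM, and the groups overlapped. Lgr6 was at 11.7 and 20.5 CPM against 9.13, 7.15 and 10.5 CPM, without overlap (log2 fold change 0.85, SE 0.30, edgeR adjusted p = 0.220). Lgr5, a marker of stem cells in several epithelia, was at 9.55 and 15.2 CPM in the aged-SP libraries and at 11.1 CPM in young-SP replicate 1, but at only 1.12 and 0.668 CPM in young-SP replicates 2 and 4. With all libraries its log2 fold change was 1.52 (SE 1.12, edgeR adjusted p = 0.503), and without young-SP replicate 1 it was 3.75 (edgeR adjusted p = 0.0203). The call on Lgr5 thus rested on that library, which was also high in the estrogen response genes, and the part of those genes in the result was not tested.

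**Figure D4:**
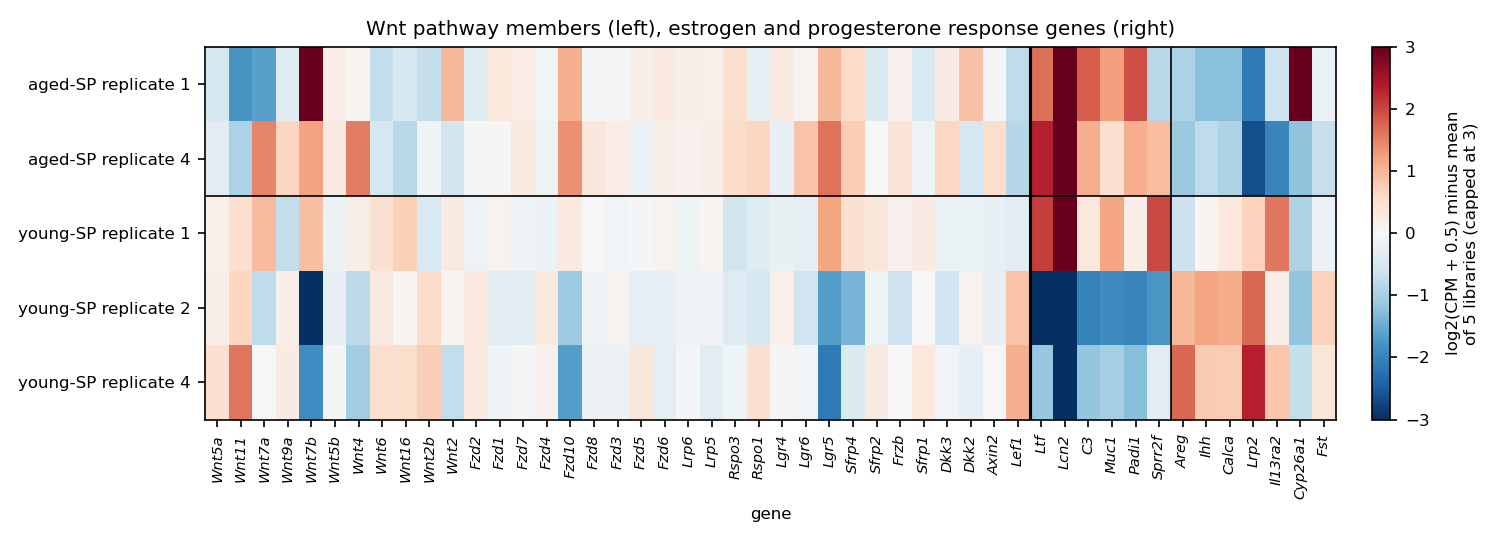
Log2(CPM + 0.5) of each gene minus its mean over the 5 libraries (colour, capped at 3 either way), for the 35 tested Wnt pathway genes on the left, 6 estrogen response genes in the middle and 7 progesterone response genes on the right. Young-SP replicate 1 resembles the aged-SP libraries in Wnt7b, Lgr5, Ltf and Lcn2, and resembles the young-SP libraries in Wnt5a, Wnt11, Wnt6, Wnt16 and Rspo3.

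Of the secreted antagonists, Sfrp4 was at 637 and 706 CPM in the aged-SP group, at 588 CPM in young-SP replicate 1, and at 162 and 322 CPM in young-SP replicates 2 and 4. The groups did not overlap, although young-SP replicate 1 lay much nearer to the aged-SP libraries than to its own group (log2 fold change 0.91, SE 0.50, edgeR adjusted p = 0.382). Without that library the log2 fold change was 1.46, with an adjusted p of 0.0834 by edgeR and 3.90e-05 by DESeq2. Sfrp1 went the other way, at 35.8 and 44.0 CPM against 58.6, 49.7 and 61.5 CPM, with no overlap (log2 fold change -0.50, SE 0.15, edgeR adjusted p = 0.169). Sfrp2 was at 74.2 and 101 CPM against 127, 90.5 and 121 CPM and overlapped, and 16.1% of its exon bases overlap Gm26771 on the opposite strand. Frzb, also known as Sfrp3, had a log2 fold change of 0.40 (SE 0.24). Members of one antagonist family therefore had fold changes of both signs, with a class median log2 fold change of 0.02.

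Dkk3 was at 145 and 188 CPM in the aged-SP libraries and at 106, 80.0 and 114 CPM in the young-SP libraries. Both aged-SP values were above all young-SP values (log2 fold change 0.74, SE 0.19, edgeR adjusted p = 0.144; DESeq2 adjusted p = 0.0203). Dkk2 was at 34.3 CPM in aged-SP replicate 1 and between 12.5 and 19.9 CPM in the other 4 libraries, so 1 library set its fitted log2 fold change of 0.46 (SE 0.42).

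The 2 target genes pointed in opposite directions. Axin2, a negative regulator that is switched on by beta-catenin and used as a readout of the canonical branch, was at 38.8 and 57.0 CPM in the aged-SP group and at 33.6, 33.5 and 39.2 CPM in the young-SP group. Aged-SP replicate 1 lay within the young-SP range (log2 fold change 0.44, SE 0.19, edgeR adjusted p = 0.287). Lef1, the transcription factor, was at 5.38 and 5.05 CPM against 7.51, 17.6 and 20.4 CPM. The aged-SP libraries were the 2 lowest, and young-SP replicate 1 was nearer to them than to the other young-SP libraries. Its level was 2.90-fold higher in the young-SP group (log2 fold change -1.54, SE 0.45, edgeR adjusted p = 0.174; DESeq2 adjusted p = 0.0152), and without young-SP replicate 1 the log2 fold change was -1.87 (edgeR adjusted p = 0.0183). Lef1 lies at chromosome 3, 131110471 to 131224356, plus strand, and 13.8% of its exon bases overlap Gm43352 on the opposite strand.

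**Figure D5:**
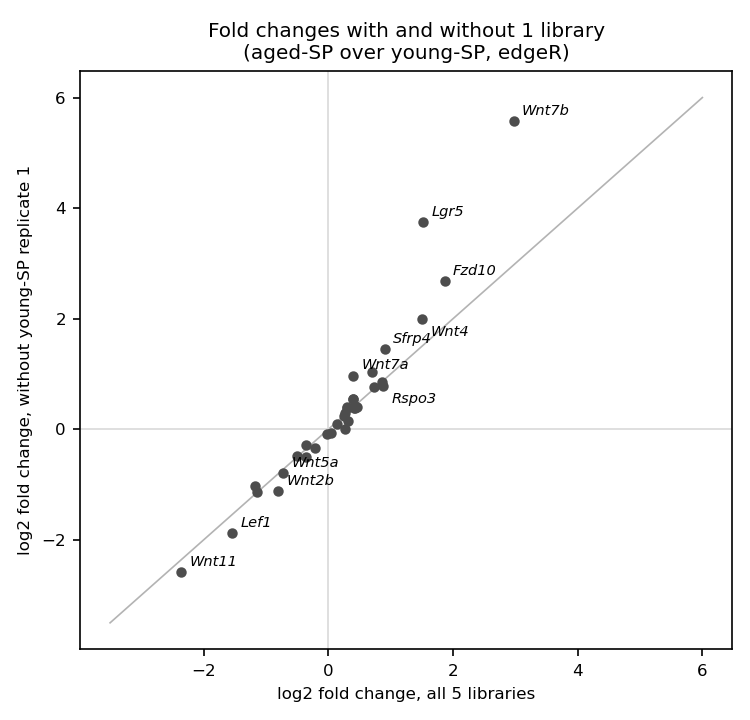
Log2 fold change (aged-SP over young-SP, edgeR) of the tested members with all 5 libraries (horizontal axis) and without young-SP replicate 1 (vertical axis), with the line of equal values in grey. Wnt7b, Lgr5 and Fzd10 lie well above the line, and Wnt5a, Wnt11 and Rspo3 lie close to it.

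The rest of the pathway was read from 64 further genes that act in Wnt secretion, receptor turnover, extracellular inhibition, planar polarity, the beta-catenin destruction complex, the nucleus or as targets. EdgeR called 0 of the 60 that were tested, and 12 (20.0%, near the 19.0% of all tested genes) passed an unadjusted p of 0.05, 6 in each direction. DESeq2 called 3 of the 60, where it called 3.6% of all genes. Their groups did not overlap in 24 genes (40.0%), against 38.8% of all tested genes, and their median absolute log2 fold change was 0.19, below the 0.24 of all genes. The genes of the secretion step, Porcn (the enzyme that attaches the lipid to Wnt proteins) and Wls (their carrier to the cell surface), had log2 fold changes of 0.19 (SE 0.33) and 0.06 (SE 0.14). Ctnnb1, which encodes beta-catenin, was at 697 and 657 CPM against 679, 652 and 638 CPM, and the groups overlapped (log2 fold change 0.04, SE 0.09).

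The smallest p of these 60 genes belonged to Csnk1e, a kinase that acts on Dvl proteins, at 59.5 and 61.8 CPM against 40.4, 40.6 and 43.3 CPM (log2 fold change 0.55, SE 0.08, edgeR adjusted p = 0.0757). Igfbp4, which can bind Fzd receptors and Lrp6, was lower in the aged-SP group, at 409 and 565 CPM against 740, 835 and 917 CPM (log2 fold change -0.77, SE 0.18, edgeR adjusted p = 0.121). Kremen1, a receptor of Dkk proteins, was higher, at 97.4 and 67.2 CPM against 40.6, 51.0 and 53.3 CPM (log2 fold change 0.77, SE 0.20, edgeR adjusted p = 0.143). None of these 3 genes overlapped between the groups. Of the 7 tested extracellular inhibitors outside the Sfrp and Dkk families, 4 had an unadjusted p under 0.05 (19.0% of all tested genes did), namely Kremen1 higher and Igfbp4, Apcdd1 and Draxin lower. The ubiquitin ligases that remove Wnt receptors and are held back by R-spondins, Znrf3 and Rnf43, had log2 fold changes of 0.43 (SE 0.15, edgeR adjusted p = 0.214) and 0.55 (SE 0.23), with no overlap. Apcdd1, Bambi and Draxin were the 3 genes of the 60 that DESeq2 called, and they are named here because the count is small, after their values were seen. Their DESeq2 log2 fold changes were -1.25, -1.32 and -2.48, and their edgeR adjusted p values were 0.149, 0.163 and 0.170. In Apcdd1 and Bambi young-SP replicate 1 was nearer to the aged-SP mean than to the mean of the other young-SP libraries. Draxin was uneven within the aged-SP group, at 5.20 CPM in replicate 1 and 0.831 CPM in replicate 4.

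Other marker lists that moved with the libraries are given beside these results. A set of 7 progesterone response genes summed to 190 and 63.8 CPM in aged-SP and to 309, 512 and 695 CPM in young-SP libraries. For 6 of the 7 the aged-SP level was lower with an unadjusted edgeR p under 0.05, against 9.36% of all tested genes. The other gene, Cyp26a1, was at 104 CPM in aged-SP replicate 1 and between 2.30 and 3.41 CPM in the other 4 libraries. The 8 stroma markers summed to 9734 and 10610 CPM against 13878, 17128 and 17452 CPM, the same order of groups as Wnt5a and Wnt11. Col1a1 and Col3a1 made up most of that sum, with Col3a1 at 4336 and 4193 CPM against 6540, 8554 and 8168 CPM. With an unadjusted edgeR p under 0.05, 5 of the 8 were lower, against 9.36% of all tested genes. Hoxa10, Nr2f2 and Dcn overlapped between the groups, with Dcn at 1867 and 2391 CPM against 1668, 1862 and 2537 CPM. The 8 epithelium markers summed to 1301 and 1344 CPM against 1722, 969 and 1171 CPM, and overlapped. The 6 gland markers did not move together. Those above in both aged-SP libraries were Prss28, Prss29 and Spink1, with Prss29 at 2458 and 2137 CPM against 385, 2.96 and 11.5 CPM. Cxcl15 was below in both, at 2.90 and 1.92 CPM against 8.69, 20.2 and 8.14 CPM, and Foxa2 and Wfdc3 overlapped. The 7 proliferation markers summed to 373 and 408 CPM against 941, 556 and 426 CPM. All 7 had negative log2 fold changes (median -0.73). Mki67 alone reached an unadjusted edgeR p under 0.05, as 9.36% of all tested genes did in that direction. Of the neighbouring organs, 8 ovary markers summed to between 22.4 and 71.6 CPM, mostly Star, and 4 oviduct markers to between 47.6 and 244 CPM, mostly Ovgp1, without separating the groups, and 3 adipose markers reached at most 1.80 CPM. The part of these lists in the Wnt values was not tested.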

How the data were processed

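RNA of whole uteri was measured in 5 libraries (2 aged-SP, 3 young-SP), grouped by their sample titles. The authors aligned filtered reads with HISAT2 2.1.0 and deposited the raw count of each gene in each library, not pooled. HTSeq 0.6.0 and Bowtie2 2.2.3 are also named in the submitters' processing notes. The strand setting of the counting is not given in the sources used here. The authors also deposited FPKM, made from the same counts by gene length and library total. They were used for levels only, never for tests. The table also holds the authors' own DESeq2 comparison, which was not used. There were 0 unused columns of per-sample values.

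Counts were fitted with edgeR 4.0.16 (R 4.3.3): filterByExpr on the 2 groups, TMM (factors between 0.990 and 1.02), glmQLFit with legacy = TRUE and a two-sided glmQLFTest, with Benjamini-Hochberg adjustment over 17013 genes. The biological coefficient of variation was 25.1%. Each SE is the absolute log2 fold change divided by the square root of the F statistic of that test. It was not taken from the model directly and adds no evidence beyond the p-value. The tests were also run on simulated counts, drawn with the spread that edgeR fitted as a trend over level. Such counts lack the gene-by-gene spread and the departing young-SP replicate 1 of the real data, so no conclusion is drawn from them. The call thresholds and DESeq2 are those of the study. DESeq2 1.42.0 and limma 3.58.1 gave alternatives, with other scalings and filters, a replicate block and each library left out. FPKM was also recomputed with TMM library sizes, and DESeq2 without young-SP replicate 1 was added after seeing the data. CPM is the count scaled by the TMM library size. Positions and overlaps were compared with GENCODE M21, where all 44 genes were found, 42 at the same position (the others are Wnt7b and Fzd8). Exon bases overlapped a gene on the opposite strand in 9 members. Beside those given with their genes above, these were Fzd5 (17.8% of exon bases), Wnt7b (6.6%), Axin2 (3.8%) and Fzd6 (3.2%).

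Values in each library are given by rule for the members with an unadjusted p under 0.05 or called by DESeq2, the 2 with the highest FPKM in each class, and Wnt4, Wnt5a, Wnt7a, Wnt7b, Fzd10, Lgr5, Axin2 and Lef1. For the further pathway genes these are the 3 with the smallest p and Ctnnb1, Porcn, Wls, Znrf3 and Rnf43. The members and the lists were chosen with earlier results of these data known. Cer1, an inhibitor in the lists, was not analysed here.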

Additional observations from a re-analysis of the deposited data

How the results depend on the processing

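Of 374 refitted log2 fold changes of the 25 members given per library, 341 kept their direction and their side of an adjusted p of 0.05, 25 kept their direction and passed that threshold, and 8 turned. The 8 were Wnt7a with limma-voom (-0.20), with the replicate block (-0.53) and without aged-SP replicate 4 (-1.96), Rspo1 without aged-SP replicate 4 (-0.25), Lgr4 without aged-SP replicate 1 (-0.24), without young-SP replicate 1 (-0.068, and -0.061 with DESeq2), and Dkk2 without aged-SP replicate 1 (-0.44). The cause was not tested. With 1 library left out, the 4 genes ranged from -1.96 to 1.24 (Wnt7a), -0.25 to 0.71 (Rspo1), -0.24 to 0.28 (Lgr4) and -0.44 to 1.01 (Dkk2). The other 21 genes kept their direction in every alternative run. Called members, 0 with edgeR, were 5 with DESeq2, 1 (Wnt11) without a filter on low counts, 8 with DESeq2 without young-SP replicate 1, and between 0 and 4 with 1 library left out (4 without that library). Members with an unadjusted p under 0.05 were 13, 20 with DESeq2 without that library, and between 9 (without aged-SP replicate 4) and 20 (without young-SP replicate 1) with 1 library left out. Called genes of the further pathway list, also 0, were 3 with DESeq2, with or without that library, and between 0 and 2 with 1 library left out. Those with an unadjusted p under 0.05 were 12, and between 7 and 18 with 1 library left out, the 7 without young-SP replicate 4 and the 18 when replicate 1 of that group was dropped. The replicate block called 0 members and gave 11 an unadjusted p under 0.05. The labels do not say whether same-numbered libraries share more than a number. The correlations of their deviations were 0.15 for the pair numbered 1 and 0.14 for the pair numbered 4. The deviations of the aged-SP libraries mirror each other, so these correlations cannot decide whether a batch was shared. Fits with 1 aged-SP library assume that it varies like the young-SP libraries. FPKM group means with TMM library sizes moved by less than 1 SD for all 25 genes. The 9 untested genes had at most 10 counts in any library, apart from the 47 counts of Rspo4 in aged-SP replicate 1, so depth limits what can be said of them.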
